A study of Mus musculus with 8 samples.

Results

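Hepatic m6A RNA immunoprecipitation sequencing (m6ARIP-seq) peaks were examined in 7 genes of cholesterol synthesis and its control, *Hmgcs1*, *Fdft1*, *Sqle*, *Srebf2*, *Scap*, *Insig1* and *Insig2*. The genes were chosen by name, as members of the SREBP2 pathway, and their peaks were all rows named for them in 3 deposited lists. No receptor for cholesterol uptake is among the 7. They held 8 of the 15635 peaks of the *Wtap* flox/flox list, 7 of the 19185 peaks of the *Wtap*-HKO list and 2 of the 3870 rows of the list of differential peaks.

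The livers came from male C57BL/6 mice (C57BL/6J background in the methods) that were 8 weeks old and fed normal chow. All mice carried the floxed *Wtap* allele, in which exon 4 lies between loxP sites. *Wtap*-HKO mice also carried Alb-Cre, whose albumin promoter drives deletion in hepatocytes. The lists do not show the state of *Wtap* in the other cells of the liver. *Wtap* flox/flox mice without Cre were the controls. Each genotype had 2 replicates, each with 1 library of immunoprecipitated RNA (IP) and 1 of the RNA before the pull-down (input), 8 libraries in all. The RNA of a replicate (300 μg) was a pool of 5 mice. Both replicates of a genotype are combined in its list, so every value below is 1 value per genotype with no SD, and whether a difference exceeds replicate variation was not testable. The lists hold no read totals, and library depth is therefore unknown.

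WTAP is a subunit of the complex that writes N6-methyladenosine (m6A) on mRNA, mostly at sites near the stop codon. Cells make cholesterol from acetyl-CoA through a chain of enzymes whose genes are switched on by the transcription factor SREBP2. When sterols are low, SCAP escorts SREBP2 from the endoplasmic reticulum to the Golgi, where it is cut and released. When sterols are high, the INSIG proteins hold SCAP and SREBP2 back. In the liver this loop sets how much cholesterol hepatocytes make and take up.

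The 15 peaks of the 2 genotypes fell into 11 sites. A site is a group of peaks of either genotype that overlap by at least 1 exonic base on the same strand. Of the 11 sites, 4 had a peak in both genotypes, against 54.1% of the 21546 sites of the series. Another 4 had a peak in *Wtap* flox/flox only (14.4% of all sites) and 3 in *Wtap*-HKO only (31.4% of all sites). *Hmgcs1*, *Sqle*, *Srebf2* and *Insig1* each had 1 shared site. *Fdft1* and *Insig2* had a peak in each genotype but at different places, and *Scap* had none. A site without a peak has no value in that genotype, so its enrichment there is not known to be low. Each of the 15 peaks was 1 uninterrupted exonic block, and whether it is coding or untranslated sequence was not analysed here.

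**Figure D1:**
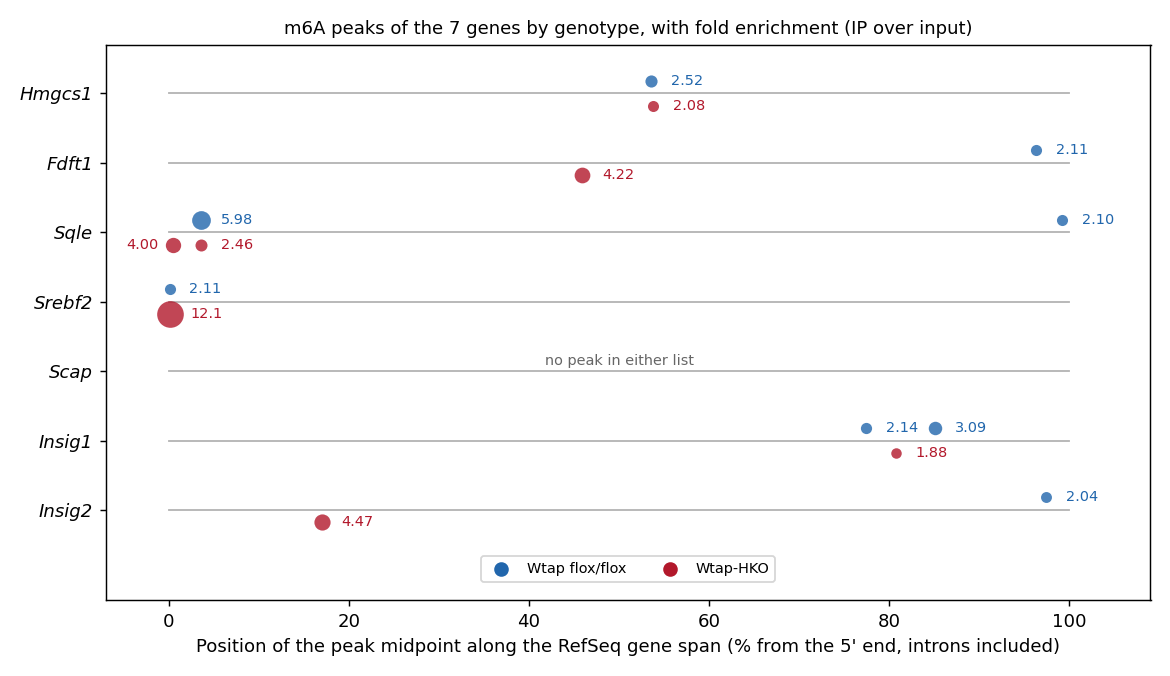
Peaks of the 7 genes, placed by the midpoint of the peak as a percent of the RefSeq gene span from its 5′ end (introns included). Blue points are *Wtap* flox/flox and red points *Wtap*-HKO, the area grows with the fold enrichment, and the number is the fold enrichment of IP over input. *Fdft1* and *Insig2* have a blue point near the 3′ end and a red point further 5′, and *Srebf2* has its 2 points at the 5′ end, at 2.11 and 12.1.

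As checks on the series, *Wtap* transcripts had 3 peaks in each list, at 3 shared sites with log2 ratios of -0.85, -0.01 and 1.23 (*Wtap*-HKO over *Wtap* flox/flox). Peak lists give no RNA level, so they do not show the deletion itself. Of 6 hepatocyte genes, 4 had a peak in the controls and 4 in *Wtap*-HKO, but not the same 4. *Alb*, *Apoa1* and *Hnf4a* had peaks in both genotypes, *Cyp2e1* in the controls only, *Ttr* in *Wtap*-HKO only and *Serpina1a* in neither. Of 8 genes that mark other liver cells, 2 had a peak in *Wtap* flox/flox (*Clec4f* and *Pecam1*) and 5 in *Wtap*-HKO (these and *Ptprc*, *Dcn* and *Col1a1*). Over all genes, 9020 had a peak in the controls and 10634 in *Wtap*-HKO, so more genes were listed in *Wtap*-HKO in general. A transcript needs reads to get a peak, and the part of RNA levels or of other cell types in the peaks below was not tested. In whole liver, fewer cells of a type and less RNA per cell cannot be told apart.

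Short stretches of the peak at the 5′ end of *Srebf2* and of the *Wtap*-HKO peak of *Insig2*, which lies within the gene near annotated start sites, are shown because these peaks were the higher, or the only listed, ones in *Wtap*-HKO. They were read from RefSeq windows of GRCm38.p6 that run from 250 bases before to 50 bases after a transcription start site. Such a window was found for 5 of the 7 genes (not for *Fdft1* or *Sqle*). Each is 30 bases, 5′ to 3′ on the strand of the transcript. Capitals mark GAC or AAC, the letters in which m6A is usually found.
*Srebf2*, chr15:82147271-82147300, plus strand, the first bases of the peak: tggcggcggttggcacggggcggtgaggcg
*Insig2*, chr1:121327832-121327861, minus strand, within the *Wtap*-HKO peak: tgcgcgcagaggcAACcggaagctcctctg

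The *Srebf2* window held 48 bases of the peak, with a GC content of 75%, 0 matches to GGAC (0 on the opposite strand as well), and 0 to GAC or AAC on the transcript strand. Over the same stretch of all 32851 RefSeq windows, 18.2% held GGAC and 66.9% held GAC or AAC. The *Insig2* window held 166 bases of the peak, with a GC content of 71.7%, 0 matches to GGAC (1 on the opposite strand), 0 to GAC and 1 to AAC. That stretch lies upstream of the start site of its window, so the other windows hold mostly sequence before a gene's start there. Over it, 44.2% of all windows held GGAC and 97.7% held GAC or AAC. GGAC contains GAC, so these searches overlap. The GC content over all windows was 56.9% for the first stretch and 51.9% for the second. The remaining bases of both peaks were not searched.

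Among the enzymes of synthesis, *Hmgcs1* (ENSMUSG00000093930) encodes the cytosolic synthase that makes HMG-CoA, near the start of the pathway. Its RefSeq span is chromosome 13 from 119690351 to 119708260 on GRCm38, plus strand. *Wtap* flox/flox had 1 peak of 299 nt (119699789 to 119700087), enriched 2.52-fold (FDR, the false discovery rate of the peak caller, 1.6e-74). *Wtap*-HKO had 1 peak of 210 nt (119699878 to 119700087), enriched 2.08-fold (FDR 4.0e-24). All 210 nt lay inside the *Wtap* flox/flox peak, and both ended at the same base. The log2 ratio of the fold enrichments was -0.28, well inside a 2-fold change. On the opposite strand, a gene without a symbol (ENSMUSG00000114934) had a peak over nearly the same bases, enriched 2.52-fold in the controls and 2.10-fold in *Wtap*-HKO. The strand setting of the peak calling is not given in the sources used here, so the reads of *Hmgcs1* and of this antisense gene cannot be told apart.

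*Fdft1* (ENSMUSG00000021273) encodes squalene synthase, the first enzyme of the branch committed to sterols. It lies on chromosome 14 from 63145150 to 63181687, minus strand. *Wtap* flox/flox had a peak of 91 nt (63146469 to 63146559) enriched 2.11-fold (FDR 2.5e-23). Its midpoint was at 96.3% of the gene span from the 5′ end, and its 3′ edge was 1319 nt short of the 3′ end. *Wtap*-HKO had no peak there, and instead had a peak of 91 nt at 45.9% of the span (63164873 to 63164963) enriched 4.22-fold (FDR 2.5e-21). The genotypes therefore had 1 small peak each, with no shared base.

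*Sqle* (ENSMUSG00000022351) encodes squalene epoxidase, which oxidises squalene and is a rate-limiting step after HMG-CoA reduction. It lies on chromosome 15 from 59315092 to 59331193, plus strand, and had 3 sites. The most 5′ site had a peak in *Wtap*-HKO only, of 181 nt (59315077 to 59315257), that began 15 nt before the RefSeq start of the gene and was enriched 4.0-fold (FDR 7.9e-16). The next site had peaks in both genotypes. In *Wtap* flox/flox it covered 420 nt (59315467 to 59315886) and was enriched 5.98-fold (FDR 1.0e-106), the highest of the 8 *Wtap* flox/flox peaks of these genes. In *Wtap*-HKO it covered 150 nt (59315587 to 59315736), all inside the *Wtap* flox/flox peak, and was enriched 2.46-fold (FDR 1.3e-14). The *Wtap* flox/flox value was 2.43-fold the *Wtap*-HKO value, a log2 ratio of -1.28 (*Wtap*-HKO over *Wtap* flox/flox). The third site, 61 nt from the 3′ end of the gene, had a peak in *Wtap* flox/flox only, of 151 nt (59330982 to 59331132), enriched 2.10-fold (FDR 1.6e-20). *Sqle* thus had a peak listed only in *Wtap*-HKO at its very start, a shared site with the lower value in *Wtap*-HKO, and a peak listed only in *Wtap* flox/flox at its 3′ end.

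The list of differential peaks held 2 rows for these genes, and both were in *Sqle*. They covered the shared site (59315467 to 59315916, fold enrichment 4.15 over the libraries of both genotypes) and the 3′ site (59330982 to 59331162, fold enrichment 1.48 over both). This is 2 of the 11 sites, where 18.3% of all sites of the series were covered by a row of that list. The fold changes and p-values in that list are the authors' comparison and were not used.

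**Figure D2:**
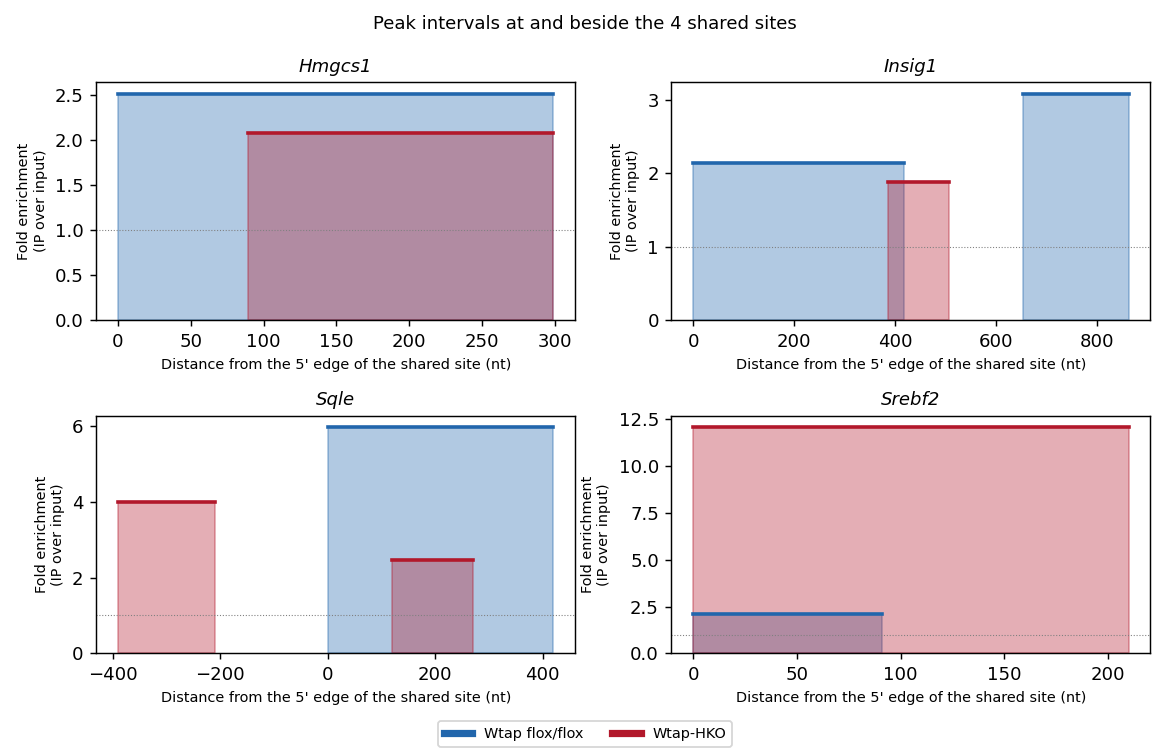
Peak intervals at and beside the 4 shared sites. The x axis is the distance in nt from the 5′ edge of the site, the y axis is the fold enrichment of IP over input, and each bar is 1 peak (blue, *Wtap* flox/flox; red, *Wtap*-HKO; dotted line, no enrichment). The bar of *Srebf2* rises from 2.11 to 12.1 and widens from 91 to 210 nt, and that of *Sqle* drops from 5.98 to 2.46 and narrows from 420 to 150 nt.

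Among the regulators, *Srebf2* (ENSMUSG00000022463) encodes SREBP2 itself. It lies on chromosome 15 from 82147269 to 82205379, plus strand. Both genotypes had a single exonic peak, beginning at the same base, 2 nt after the RefSeq start of the gene. In *Wtap* flox/flox the peak covered 91 nt (82147271 to 82147361) and was enriched 2.11-fold, and its FDR of 5.9e-06 was the weakest of the 15 peaks. In *Wtap*-HKO it covered 210 nt (82147271 to 82147480) and was enriched 12.1-fold (FDR 2.0e-51), the highest of the 15 peaks. The *Wtap*-HKO value was 5.74-fold that of *Wtap* flox/flox, a log2 ratio of 2.52. Of the 11662 shared sites of the series, 116 had a higher ratio. By rank of fold enrichment within each list, the peak stood at percentile 6.59 in *Wtap* flox/flox and at percentile 77.1 in *Wtap*-HKO. No peak was listed elsewhere in the gene, its 3′ end included. The list of differential peaks held no row for *Srebf2*.

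*Scap* (chromosome 9, 110333288 to 110384949, plus strand), which encodes the escort protein of SREBP2, had 0 peaks in all 3 lists. A search by position on either strand also found 0 peaks within its span. How weak an enrichment the caller could have found there is not known.

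*Insig1* (ENSMUSG00000045294), which encodes a sterol-responsive anchor of SCAP, lies on chromosome 5 from 28071412 to 28078662, plus strand. Its first peak in *Wtap* flox/flox covered 417 nt (28076819 to 28077235) and was enriched 2.14-fold (FDR 3.2e-84). The only *Wtap*-HKO peak, of 120 nt (28077205 to 28077324), shared 31 nt with it and was enriched 1.88-fold (FDR 5.0e-13), the lowest of the 15 peaks. The log2 ratio was -0.19. A further peak of 209 nt (28077473 to 28077681, enriched 3.09-fold, FDR 6.3e-30), 981 nt from the 3′ end, was listed in *Wtap* flox/flox only. Both sites lie where RefSeq also places the gene *Gm35223*, so reads at them may belong to either gene.

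*Insig2* (ENSMUSG00000003721), the second anchor of SCAP, lies on chromosome 1 from 121304353 to 121332662, minus strand. *Wtap* flox/flox had a peak of 151 nt (121305011 to 121305161), 658 nt from the 3′ end, enriched 2.04-fold (FDR 1.3e-73). *Wtap*-HKO had no peak there. Its peak of 180 nt (121327763 to 121327942) was enriched 4.47-fold (FDR 5.0e-12). Its 5′ edge was 82 nt after 1 of the 3 start sites with a RefSeq window for the gene, and at -264 nt from (upstream of) the most 3′ one. As in *Fdft1*, the only peak was at the 3′ side in *Wtap* flox/flox and further 5′ in *Wtap*-HKO, and the fold enrichment of the latter was the higher of the pair.

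Set side by side, the 7 genes had low fold enrichments in *Wtap* flox/flox. The 8 peaks ranged from 2.04 to 5.98 with a median of 2.12, and 7 of them were below the median of all peaks in that list (5.51, interquartile range 3.39 to 9.70). In *Wtap*-HKO the 7 peaks ranged from 1.88 to 12.1 with a median of 4.0, and 6 were below the median of that list (5.93, interquartile range 3.64 to 11.2). The peaks covered 1829 exonic nt in *Wtap* flox/flox and 1142 nt in *Wtap*-HKO. Their median length was 180 nt in each genotype. Over all peaks the median length was 269 nt in *Wtap* flox/flox and 240 nt in *Wtap*-HKO.

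Of the 4 shared sites, 1 was more than 2-fold higher in *Wtap*-HKO (*Srebf2*) and 1 more than 2-fold lower (*Sqle*), and the *Hmgcs1* and *Insig1* sites were within 2-fold. Over all shared sites of the series, 15.1% were more than 2-fold higher and 12.7% more than 2-fold lower. The median log2 ratio was -0.23 for the 4 sites and 0.01 for all 11662. The 4 sites are too few for a comparison of shares, and none was tested. The ratios compare peaks of different length in each genotype, and how the libraries were scaled is not stated.

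**Figure D3:**
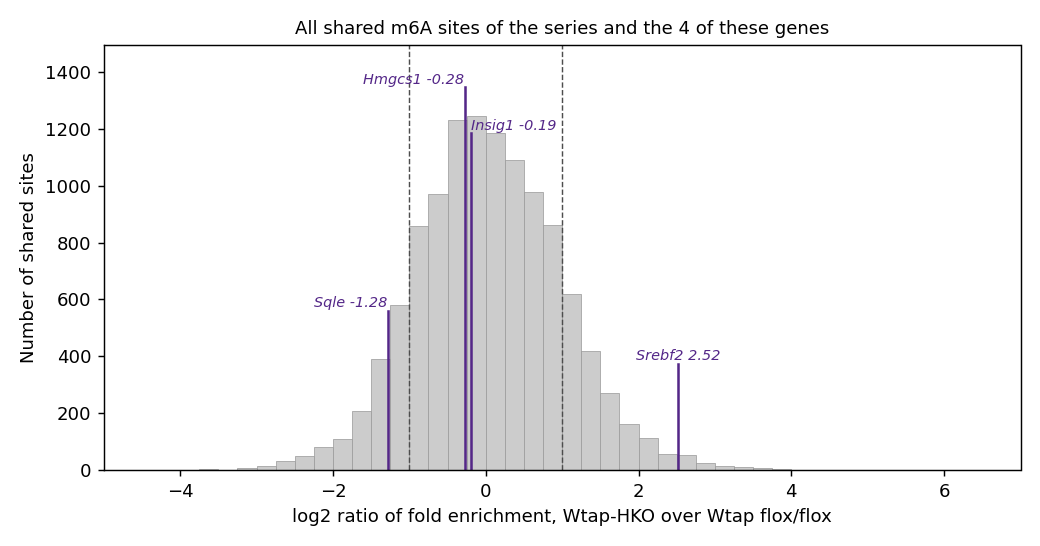
Distribution of the log2 ratio of fold enrichment (*Wtap*-HKO over *Wtap* flox/flox) over the 11662 shared sites of the series, with the number of sites on the y axis. The lines mark the 4 sites of these genes and the dashed lines a 2-fold change. *Srebf2* at 2.52 lies in the upper tail, *Sqle* at -1.28 just past the lower dashed line, and *Hmgcs1* and *Insig1* close to the middle.

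The sites listed in 1 genotype were placed along their genes. All 4 sites of *Wtap* flox/flox only (*Sqle*, *Fdft1*, *Insig1* and *Insig2*) had their midpoint between 85% and 99.2% of the gene span from the 5′ end. The 3 sites of *Wtap*-HKO only (*Sqle*, *Insig2* and *Fdft1*) lay at 0.47%, 17.0% and 45.9%. Thus 4 of 4 were in the 3′ 50% of the span, where 79.9% of the *Wtap* flox/flox only sites of the series lay. Likewise 3 of 3 were in the 5′ 50%, where 52.8% of all *Wtap*-HKO only sites lay. The sites are too few for these counts to be told from the shares of the series. When a site had to reach to 200 nt or less from the gene end, 1 of the 4 (*Sqle*) was at the 3′ end (11.3% of all *Wtap* flox/flox only sites) and 1 of the 3 (*Sqle*) at the 5′ end (27.2% of all *Wtap*-HKO only sites). Positions and distances were taken from the outer ends of the RefSeq span. The *Insig2* peak of *Wtap*-HKO began 82 nt after another annotated start site, so its place depends on the start used. In each of the 3 genes with sites of both kinds, the *Wtap*-HKO only site was the more 5′ one. Over the series, the median position was 89.7% for *Wtap* flox/flox only sites and 43.0% for *Wtap*-HKO only sites. How many genes of the series have this order was not counted. The shared *Sqle* site was lower in *Wtap*-HKO although it lay at 3.63% of the span, while 82.8% of all shared sites more than 2-fold lower were in the 3′ 50%. The *Srebf2* site, at 0.18% of the span, was in the 5′ 50% with 55.1% of all shared sites more than 2-fold higher.

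The wider pathway was described with 45 further genes from 4 lists, on synthesis, SREBP control, uptake and transport, and export. Of these, 33 had a peak in *Wtap* flox/flox, 34 in *Wtap*-HKO, 30 in both and 8 in neither. They held 74 sites, of which 44 were shared (54.1% of all sites in the series), 11 were in *Wtap* flox/flox only (14.4% in the series) and 19 in *Wtap*-HKO only (31.4% in the series). Among the 44 shared sites, 5 were more than 2-fold higher and 3 more than 2-fold lower in *Wtap*-HKO, against 15.1% and 12.7% of all shared sites, and the median log2 ratio was -0.03.

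The median ratios of the 4 lists below stand beside the 0.01 of all shared sites. The 16 further enzymes of synthesis had 8 genes with a peak in the controls and 10 in *Wtap*-HKO. More genes had a peak in *Wtap*-HKO over the whole series as well. Peaks were in *Wtap*-HKO only for *Acat2*, *Cyp51*, *Tm7sf2* and *Mvd*, and in *Wtap* flox/flox only for *Pmvk* and *Hsd17b7*, 6 genes named after their values were seen. Of 6 shared sites (median log2 ratio -0.61), 1 was more than 2-fold higher in *Wtap*-HKO and 0 lower. It was in *Lss*, the lanosterol synthase that acts right after *Sqle* (enriched 2.44-fold in the controls and 5.6-fold in *Wtap*-HKO, at 4.38% of the span). The other shared sites of these enzymes were all lower in *Wtap*-HKO, each within 2-fold. The 6 sites are few, and their median was not tested against that of the series.

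Of the 9 further genes of SREBP control, 8 had peaks in both genotypes. Among their 16 shared sites (median log2 ratio -0.19), 0 were more than 2-fold higher and 1 more than 2-fold lower. It was in *Erlin2*, part of a complex that removes proteins from the endoplasmic reticulum, and was enriched 7.96-fold in the controls and 3.76-fold in *Wtap*-HKO (log2 ratio -1.08). Some of the 16 shared sites, not that of *Erlin2*, were also listed under another gene, and reads at them may belong to either gene. They were the only sites of 1 of the 8 genes, so its place in that count has the same limit.

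Of the 10 genes of lipoprotein uptake and cholesterol transport, 10 had a peak in the controls and 9 in *Wtap*-HKO, the exception being *Npc1*. At 11 shared sites (median log2 ratio 0.29), 3 were more than 2-fold higher in *Wtap*-HKO and 1 lower. The lipoprotein receptor *Lrp1* was enriched 2.42-fold in the controls and 9.64-fold in *Wtap*-HKO (log2 ratio 1.997). *Stard4*, a sterol carrier, had 2.78 and 7.50 (log2 ratio 1.43). *Mylip*, a ubiquitin ligase that degrades lipoprotein receptors, had 6.28 and 16.5 (log2 ratio 1.39). *Lipa*, the lysosomal lipase that frees cholesterol from its esters, was the lower one, with 3.86 and 1.88 (log2 ratio -1.04).

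Of the 10 genes of export, esterification and oxysterol sensing, 7 had peaks in both genotypes, with 11 shared sites (median log2 ratio 0.27). *Abcg8*, a subunit of the sterol exporter to bile, had 1 site past 2-fold in each direction. Its site at 35.8% of the span went from 3.34 to 7.27 (log2 ratio 1.12) and its site at 93.7% from 8.37 to 3.88 (log2 ratio -1.11).

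Over the 4 lists, the 5 shared sites more than 2-fold higher in *Wtap*-HKO lay between 0.31% and 35.8% of the gene span, and 55.1% of all such sites of the series were in the 5′ 50%. The 3 shared sites more than 2-fold lower lay between 82.8% and 93.8%, and 82.8% of all such sites were in the 3′ 50%. *Sqle*, with its lower site near the start of the gene, had no counterpart among these 3. Rows of the list of differential peaks covered the lower sites of *Erlin2*, *Lipa* and *Abcg8*. Of the higher sites, such rows covered that of *Lrp1* but not those of *Lss*, *Stard4*, *Mylip* and *Abcg8*. Over the series, 18.3% of all sites were covered by a row of that list.

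**Figure D4:**
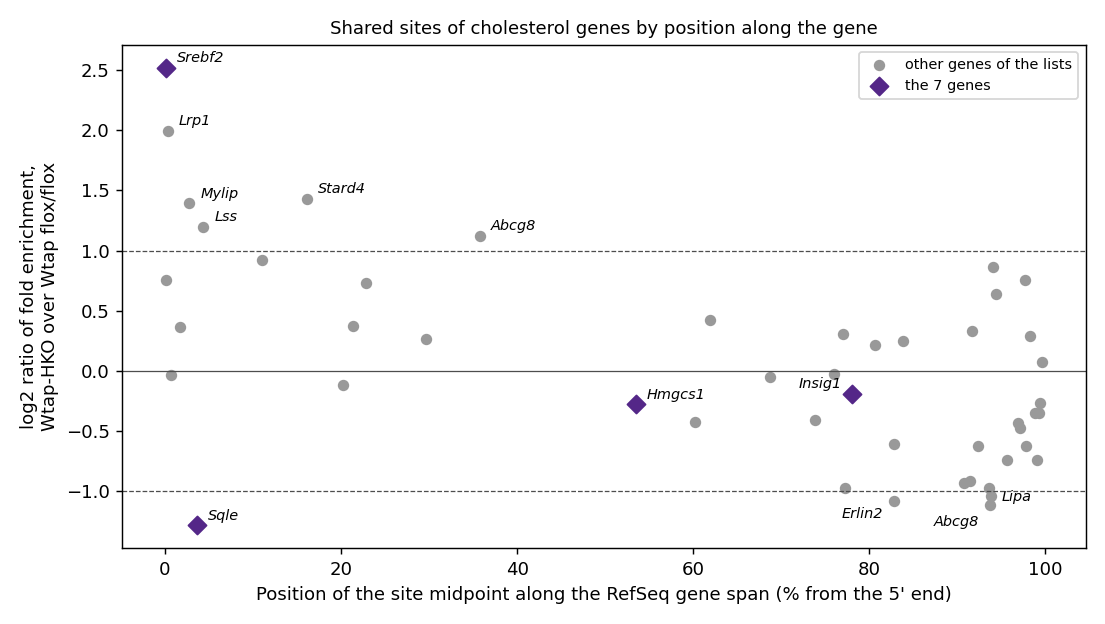
Shared sites of the cholesterol genes, with the position along the RefSeq gene span (percent from the 5′ end) on the x axis and the log2 ratio of fold enrichment (*Wtap*-HKO over *Wtap* flox/flox) on the y axis. Diamonds are the 7 genes, grey points the 44 shared sites of the other genes, and dashed lines a 2-fold change. The named sites above the upper line lie in the 5′ part of their genes, and those below the lower line lie in the 3′ part except *Sqle* at -1.28.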

How the data were processed

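m6ARIP-seq libraries of mouse liver were compared between *Wtap* flox/flox and *Wtap*-HKO mice. Per the methods and the submitters' processing notes, which name fastp 0.19.11, BWA 0.7.12 and HOMER 4.9.1, 150 bp read pairs were mapped to GRCm38 (Ensembl release 92), and exomePeak 2.16.0 called peaks for each genotype with the replicates combined. The fold enrichment that the authors deposited is a linear ratio, IP relative to input, and its library scaling is not stated. The p-values and false discovery rates were deposited as log10 scores of the peak caller. The list of differential peaks also holds the authors' fold change, p-value and false discovery rate between the genotypes. These 3 columns were not used. Only the positions of its rows and their IP over input enrichment were read.

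Peaks that shared 1 or more exonic bases on a strand were joined into sites. A site with several peaks of 1 genotype took their mean fold enrichment weighted by exonic length. A log2 ratio (*Wtap*-HKO over *Wtap* flox/flox) past 1 in either direction counted as more than 2-fold. No test was run, because replicates are combined. Depth is unknown, so no interval could be given. Starts are 1-based. Gene spans are from RefSeq on GRCm38.p6, matched by symbol, and 89.1% of all sites could be placed. Motifs could be searched only in RefSeq start windows, a choice made after the lists had been examined. The 7 genes and the other gene lists were chosen with earlier results of these data known. The genes named are the 7, *Wtap*, and the list genes with a shared site past 2-fold (at most 6 in each direction). Outside this rule, the marker genes and the list genes with peaks in 1 genotype only were named after their values were seen. Some genes of these lists are not reported here, and the list counts leave them out. Python 3.11.15, pandas 2.3.3, numpy 2.4.6 and matplotlib 3.10.9 were used. The overlap and ratio steps were tested on the *Wtap* flox/flox list against a copy of it with planted changes. Peaks kept in the copy had identical positions, so partial overlaps and sites with several peaks were not covered by that test. Other settings tried were an FDR limit of 0.01, a fold enrichment of at least 2, merged peaks, 50% overlap, whole spans, a 1.5-fold threshold, median division, percentile ranks, the highest peak of a site and distance to the gene ends.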

Additional observations from a re-analysis of the deposited data

How the results depend on the processing

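No paired analysis was possible because the replicates are combined in the lists, which also kept any replicate from being left out. Under the alternatives, 28 recomputed values kept their direction and stayed within 1.5 times the reported count or on the same side of the 2-fold threshold. The other 2 concern the place along the gene. When a site had to reach to 200 nt or less from the gene end, 1 of the 3 *Wtap*-HKO only sites was at the 5′ end and 1 of the 4 *Wtap* flox/flox only sites at the 3′ end. The gene ends here are the outer ends of the RefSeq span, and other annotated start sites were not used. The *Insig1* site was the only one of the 4 shared sites to depend on the rule for sharing. In all, 3 sites were shared when 50% of the shorter peak had to overlap, and 3 when a fold enrichment of at least 2 was required. *Srebf2* (higher) and *Sqle* (lower) stayed past the threshold by percentile ranks and after division by the median ratio, which moved log2 ratios by only 0.0073. At the lower threshold of 1.5-fold these 2 sites could not drop out, and no further shared site passed it. With no read totals, the limit of detection at sites without a peak is unknown.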

Other observations

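The sites listed in 1 genotype in the 45 further cholesterol genes were also placed along their genes. Of the 19 sites in *Wtap*-HKO only, 13 had their midpoint in the 5′ 50% of the gene span (52.8% of such sites over the series), with a median position of 17%. Of the 11 sites in *Wtap* flox/flox only, 10 were in the 3′ 50% (79.9% over the series), with a median position of 95.7%. The 44 shared sites had a median position of 82.8%, and 31 of them were in the 3′ 50% (69.1% over the series). These genes were picked for their function, and several sites of a gene are not independent.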
